A study of Mus musculus with 10 samples.

Results

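The nuclei described here are inhibitory neurons of the mouse hippocampus that carried RNA of Nxph1, which encodes a secreted ligand of neurexins, and of Erbb4, the neuregulin receptor of many inhibitory neurons, but no RNA of Sst, the somatostatin gene. They were chosen from their own counts of unique molecular identifiers (UMIs, 1 for each captured RNA molecule). A barcode with at least 500 UMIs was taken when it held at least 2 UMIs of Gad1 and Gad2 together, at least 2 of Erbb4, at least 2 of Nxph1 and Lhx6 together and more of that pair than of Adarb2, with none of Sst and none of Zic1. The rule was met by 514 of 15661 barcodes, which are called Nxph1/Erbb4 nuclei here. They made up 3.30% of the 15560 barcodes with at least 500 UMIs, and 27.3% (95% exact binomial interval 25.3 to 29.4) of the 1884 barcodes with at least 2 Gad1 and Gad2 UMIs.

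All 10 samples came from unstimulated wild-type animals of the C57B/6J strain, 4 to 7 months old, and held sorted hippocampal nuclei. The titles of 4 of them also name an RNASET2 hippocampus control, which the labels do not explain. The study therefore holds 1 group and no treated or mutant one, and single-nucleus RNA-seq was the only assay. The deposited matrix pools the samples, and the number at the end of each barcode (1 to 7, a barcode set) is tied to no sample by the labels. The whole matrix was therefore taken as 1 sample: values by barcode set describe spread, no p-value was computed, and intervals cover counting error only.

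Hippocampal interneurons release GABA onto principal cells and onto each other. Those born in the medial ganglionic eminence (MGE) of the embryo keep the transcription factor Lhx6 and include the parvalbumin and somatostatin cells, while those born in the caudal eminence (CGE) often express Adarb2. Parvalbumin basket cells are known for narrow, fast spikes carried by Kv3 potassium channels (Kcnc1, Kcnc2) and for transmitter release triggered by synaptotagmin-2 (Syt2), and chandelier cells contact the start of the axon. Neurogliaform and ivy cells, marked by Lamp5 and neuronal nitric oxide synthase (Nos1), act through diffuse GABA release and in the hippocampus come partly from the MGE.

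The Nxph1/Erbb4 nuclei were set against Sst, Adarb2 and excitatory nuclei, all with at least 500 UMIs, no Zic1 UMI and no Erbb4 minimum. The 103 Sst nuclei met the same Gad1 and Gad2, Nxph1 and Lhx6, and Adarb2 conditions, but held at least 2 Sst UMIs. The 575 Adarb2 nuclei held at least 2 UMIs of Gad1 and Gad2 together, at least 2 of Adarb2 and none of Sst. They also held more Adarb2 than Nxph1 and Lhx6 UMIs. The 3069 excitatory nuclei held no Gad1, Gad2 or Sst UMI and at least 2 of Slc17a7, a vesicular glutamate transporter. Levels are counts per 1000000 UMIs (CPM) of the summed nuclei of a kind. A gene is called higher or lower when the ratio of these levels was at least 2-fold and the gene had at least 100 UMIs over both sides.

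Barcode sets 1 to 6 held 70, 133, 108, 66, 74 and 62 Nxph1/Erbb4 nuclei, and set 7 held 1. Their median was 8157 UMIs, with a range of 1347 to 46755, against 8151 in Sst, 8741 in Adarb2 and 10361 in excitatory nuclei. Sets 5 and 6 were shallower, with medians of 3250.5 and 2854.5 UMIs, while those of sets 1 to 4 were 8886, 9561, 9838 and 11798. Among all barcodes 42 shared a sequence with a barcode of another set, and none of the Nxph1/Erbb4 nuclei did. Scrublet called 17 of the 514 doublets (3.31%), but it called under 0.5% of all barcodes in sets 2, 5, 6 and 7 and is not taken to have worked there. Oligodendrocyte markers, 6 of 6 detected, summed to 414.4 CPM in Nxph1/Erbb4 nuclei (98.0 to 1357 over the sets), against 528.8 CPM in Sst, 790.9 in Adarb2 and 343.3 in excitatory nuclei. Oligodendrocyte precursor markers were highest in Nxph1/Erbb4 nuclei, at 123.0 CPM, against 60.8 in Sst, 68.8 in Adarb2 and 16.0 in excitatory nuclei. Over the sets they ran from 86.4 to 158 CPM in Nxph1/Erbb4 and from 18.7 to 275 CPM in Adarb2 nuclei. Among them Vcan was highest in Nxph1/Erbb4 nuclei, with a median over the sets of 82.6 CPM, against 12.6 CPM for Pdgfra, the next. In cluster 1, described below, the list summed to 275 CPM, and Vcan alone was at least 2-fold above the other Nxph1/Erbb4 nuclei. In cluster 5 it summed to 364 CPM, and the other 4 markers were. Astrocyte markers summed to 67.8, 62.7, 132 and 229 CPM in Nxph1/Erbb4, Sst, Adarb2 and excitatory nuclei. In the same order, microglia markers summed to 156, 155, 196 and 153 CPM. The 8 excitatory markers summed to 660.0 CPM in Nxph1/Erbb4 nuclei and 2365 CPM in excitatory nuclei, which were chosen on Slc17a7, a marker of this list. The 4 vascular markers summed to 1.93 CPM in Nxph1/Erbb4 nuclei (9 UMIs, Cldn5 and Rgs5 at 0), against 0 in Sst, 2.52 CPM in Adarb2 and 1.88 CPM in excitatory nuclei. The part of these markers in the differences was not tested beyond the alternatives named beside them.

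Erbb4 and the Nxph1 and Lhx6 pair were far above their limits in most nuclei, while Gad1 and Gad2 lay closer to theirs. The median nucleus held 60.5 Erbb4 UMIs, 24 of Nxph1 and Lhx6 together and 5 of Gad1 and Gad2 together, and 313 of the 514 held no Adarb2 UMI. Just inside the limits lay 11 nuclei with exactly 2 Erbb4 UMIs, 17 with exactly 2 of Nxph1 and Lhx6, and 104 with exactly 2 of Gad1 and Gad2. Just outside lay 18 barcodes with 1 Erbb4 UMI, 11 with 1 UMI of Nxph1 and Lhx6, 144 with 1 of Gad1 and Gad2 and 88 with exactly 1 Sst UMI that met all else. More nuclei thus lay at the Gad limit than at the other minimums. Lhx6 itself was detected in 208 nuclei (40.5%), so most were taken on Nxph1 alone.

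Parvalbumin RNA was found in a minority of these nuclei. Pvalb, which encodes the calcium buffer that gives parvalbumin cells their name (gene at chr15:78191114-78206400, minus strand, GRCm38), had a UMI in 58 of 514 nuclei, or 11.3% (8.68 to 14.3). The share was 2.91% (3 of 103, 0.605 to 8.28) in Sst nuclei, 0.870% (5 of 575, 0.283 to 2.02) in Adarb2 nuclei and 0.261% (8 of 3069, 0.113 to 0.513) in excitatory nuclei. After each nucleus was thinned to 2000 UMIs, which left out 22 Nxph1/Erbb4, 2 Sst, 24 Adarb2 and 47 excitatory nuclei, the shares were 4.07% (20 of 492, 2.50 to 6.21) in Nxph1/Erbb4, 0.990% (1 of 101, 0.0251 to 5.39) in Sst, 0 (upper bound 0.667%) in Adarb2 and 0 (upper bound 0.122%) in excitatory nuclei. The Nxph1/Erbb4 interval lay above those of the other 3 kinds before thinning, while after it the interval overlapped that of Sst nuclei and lay above those of Adarb2 and excitatory nuclei. No Pvalb UMI was found in 456 of the 514 Nxph1/Erbb4 nuclei. Summed levels were 17.5 CPM in Nxph1/Erbb4 nuclei, 2.85 CPM in Sst, 0.900 in Adarb2 and 0.221 in excitatory nuclei. Over sets 1 to 6 Pvalb stood at 18.9, 9.46, 11.7, 25.6, 37.9 and 41.3 CPM. The parvalbumin name is therefore not used for all 514 nuclei, since the clusters described next differ in it.

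The 300 bases around the upstream Pvalb start (chr15:78206351-78206650, minus strand, GRCm38.p6, 250 bases before the start and 50 after it, from RefSeq) are shown because Mef2c, which encodes a MEF2 transcription factor, was among the genes higher in Nxph1/Erbb4 nuclei than in each other kind. Capitals mark the only match to the MEF2 consensus on either strand, which begins 180 bases before the start.
Pvalb: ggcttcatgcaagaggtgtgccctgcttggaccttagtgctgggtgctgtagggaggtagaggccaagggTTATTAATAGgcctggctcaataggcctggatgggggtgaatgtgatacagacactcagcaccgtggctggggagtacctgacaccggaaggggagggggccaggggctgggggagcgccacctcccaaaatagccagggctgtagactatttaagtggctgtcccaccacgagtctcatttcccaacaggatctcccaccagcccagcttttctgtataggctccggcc
The second Pvalb start held no match, nor did the starts of Syt2 and Lamp5. Of 32851 mouse promoters of this length, 1047 (3.19%) held at least 1 match, and a match of letters is not a binding site. Among the 514 nuclei, Mef2c was not called higher or lower in those with a Pvalb UMI than in those without. A link between Mef2c and Pvalb was not tested.

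Grouping the 514 nuclei by 1500 variable genes, with every gene of the rule and of the gene lists left out, gave 8 clusters. Their leading genes describe them and are not tested results. A marker is called raised when its CPM in a cluster was at least 2 times that of the other Nxph1/Erbb4 nuclei, from at least 3 UMIs. The share of all genes raised in a cluster was not counted, so counts of raised markers, and names taken from them, are descriptions alone. Cluster 1, the most numerous with 146 nuclei, had all 8 neurogliaform and ivy markers raised and is called neurogliaform- or ivy-like. Lamp5 had 206 CPM in it and 5.89 CPM in the other Nxph1/Erbb4 nuclei, with a UMI in 74.0% of its nuclei. Hapln1, a link protein of the hyaluronan matrix, had 274 CPM in cluster 1 and 11.8 CPM in the others, and Nos1 208 CPM in cluster 1 and 25.2 CPM in the others. Cacna2d1, a calcium channel subunit that is the target of gabapentin, had 2798 CPM in cluster 1 and 152 CPM in the others. Cluster 1 also had the highest level of Gabrg3, the gamma-3 subunit of the GABA-A receptor, at 6664 CPM. Its Pvalb level was 2.70 CPM, with a UMI in 1.37% of its nuclei.

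Clusters 2 and 3 held 40 and 28 of the 82 Pvalb UMIs. In cluster 2 (112 nuclei), led by Myo1e and Mybpc1, Pvalb had 37.7 CPM and a UMI in 24.1% of nuclei, and Syt2 had 160.3 CPM. In cluster 3 (60 nuclei), led by the metalloprotease gene Tll1, Pvalb had 47.0 CPM and a UMI in 33.3%, and Syt2 had 191 CPM. Both therefore carried several times the Pvalb and Syt2 of cluster 1. Kcnc2, the Kv3.2 channel, had 5766 CPM in cluster 2 and 3596 CPM in cluster 3, against 746 CPM in cluster 1. Oprd1, the delta opioid receptor, had 139 and 213 CPM in clusters 2 and 3, against 9.02 CPM in cluster 1. They differed from each other in Tac1, the substance P precursor, with 47.1 CPM in cluster 2 and 8.39 CPM in cluster 3, and in Slit2, a guidance ligand, which led cluster 2 at 1049.6 CPM. With Pvalb as the only marker of the parvalbumin-like class, both stay unnamed.

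Cluster 7 (26 nuclei) had all 5 chandelier markers raised and is called chandelier-like. Vipr2, a receptor of vasoactive intestinal peptide, had 80.7 CPM there against 1.13 CPM in the other Nxph1/Erbb4 nuclei, and Unc5b, a netrin receptor, had 211 CPM there and a UMI in 76.9% of its nuclei. The adhesion gene Cntnap5b had 3542 CPM there against 264 CPM in the others. Pvalb had 23.1 CPM and a UMI in 19.2% of these nuclei. Oligodendrocyte markers were raised in cluster 7 as well, 3 of 6 (Mbp, Mog and Mobp), and the list summed to 776 CPM there and 393 CPM in the others; their part in its levels was not tested. Clusters 2, 3 and 7 thus carried Pvalb, while clusters 1 and 5 had at most 7.56 CPM and clusters 4, 6 and 8 had no Pvalb UMI.

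The other clusters fit the label less well. Cluster 4 (59 nuclei) had no Pvalb UMI but 4 of 5 somatostatin markers raised, among them Elfn1, a postsynaptic protein of somatostatin cells, at 264 CPM against 17.7 CPM in the other Nxph1/Erbb4 nuclei, and Grin3a, an NMDA receptor subunit, at 624 CPM against 148 CPM in the others. Its Erbb4 level, 2089 CPM, was the lowest of the 8 clusters, and since the rule holds Sst at 0 it was left unnamed. Cluster 5 (54 nuclei) had 6 of 6 oligodendrocyte, 4 of 5 oligodendrocyte precursor and 4 of 5 microglia markers raised. It also had 5 of 8 excitatory markers raised, and the chandelier markers C1ql1 and Pthlh. The myelin gene Mbp had 526 CPM in cluster 5 against 32.9 CPM in the others, and the cluster held 15 of the 17 called doublets. Cluster 6 (37 nuclei) came wholly from barcode set 1 and was led by Rorb and Dlk1, with the enkephalin gene Penk at 55.5 CPM, Tac1 at 114 CPM and no Pvalb UMI. Cluster 8 (20 nuclei), led by Meis2 and Prdm16, came from sets 1, 2 and 4 and had no UMI of Pvalb, Lhx6, Sox6 or Maf. Clusters 4, 5, 6 and 8 stay unnamed.

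**Figure D1:**
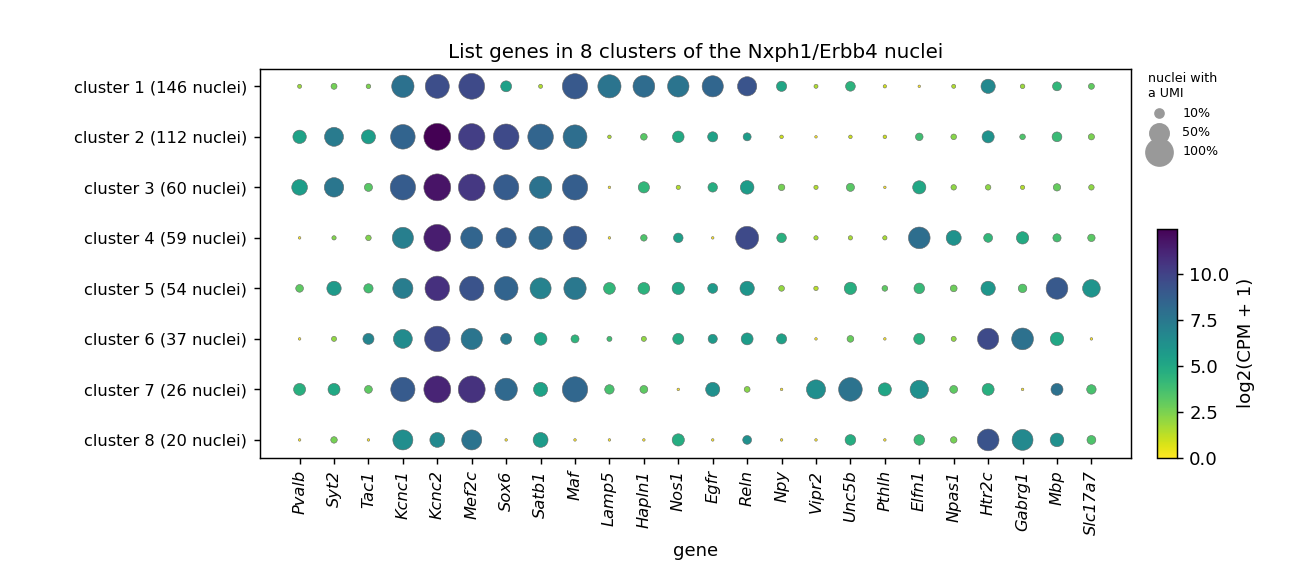
Dot plot of 24 marker genes (columns) in the 8 clusters of Nxph1/Erbb4 nuclei (rows); the dot's area is the percentage of nuclei with a UMI and its colour is log2(CPM + 1). Pvalb and Syt2 stand out in clusters 2 and 3, where Pvalb has 37.7 and 47.0 CPM, while Lamp5 and Hapln1 stand out in cluster 1.

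The clusters were unevenly spread over the barcode sets. Cluster 1 held 16, 34, 33, 18, 18 and 27 nuclei of sets 1 to 6, cluster 2 held 2, 41, 21, 20, 20 and 8, and cluster 3 held 3, 9, 19, 12, 10 and 7. Set 1 thus had 5 nuclei in the clusters richest in Pvalb, but all 37 of cluster 6, and in set 6 cluster 1 was the most numerous, with 27 of 62 nuclei. The share of barcodes with at least 2 Gad1 and Gad2 UMIs that met the rule also ran from 12.2% in set 1 to 42.2% in set 6. Since no set is tied to a sample, sample, dissection and library cannot be told apart here.

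**Figure D2:**
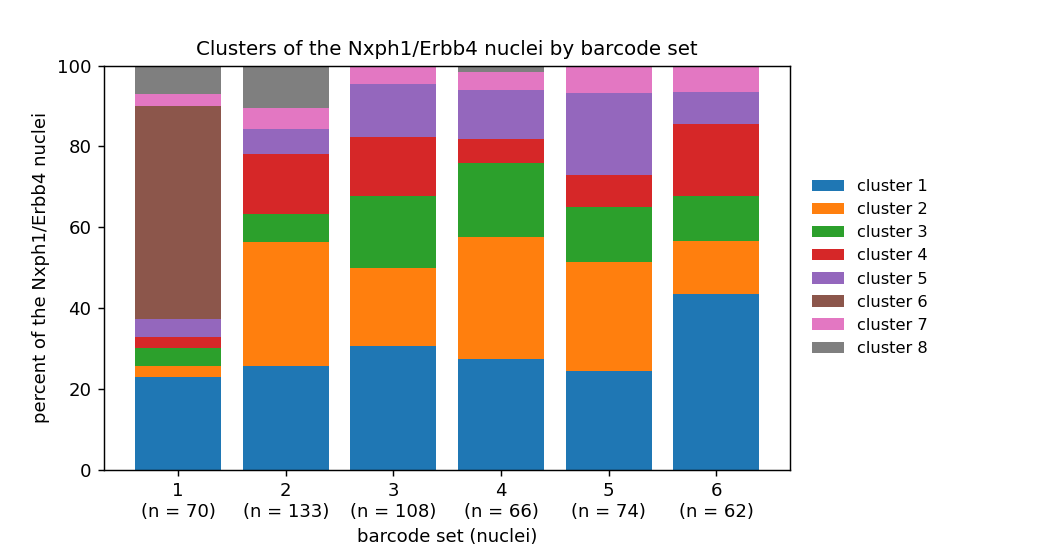
Stacked bars of the percentage of Nxph1/Erbb4 nuclei in each of the 8 clusters for barcode sets 1 to 6. Cluster 6 appears in set 1 alone, with 37 of its 70 nuclei, and cluster 1 is present in every set.

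Against Sst nuclei, the Nxph1/Erbb4 nuclei had more RNA of a GABA-A receptor subunit, of the fast release sensor Syt2 and of parvalbumin-cell genes, and less of somatostatin-cell genes such as Elfn1 and Grin3a. Of 7060 genes tested, 214 were higher (3.03%) and 109 lower (1.54%). Gabrg3 (chr7:56716465-57387188, GRCm38) had 3467 CPM in Nxph1/Erbb4 nuclei and 686 CPM in Sst nuclei, 5.05 times as much (95% interval 4.69 to 5.45). Over the 6 barcode sets its lowest, median and highest levels in Nxph1/Erbb4 nuclei were 2613, 3576 and 4055 CPM, while sets 2 and 4, the only ones with at least 20 Sst nuclei, had 921 and 281 CPM in Sst nuclei. The lowest Nxph1/Erbb4 set was thus above both. Syt2 (chr1:134646677-134762593, overlapping Ppp1r12b on the other strand) had 72.1 CPM in Nxph1/Erbb4 and 11.4 CPM in Sst nuclei, 6.33 times as much (3.58 to 12.4). Its levels over the sets were 37.8, 61.2 and 107 CPM in Nxph1/Erbb4 nuclei, again above the 4.43 and 14.0 CPM of Sst nuclei in sets 2 and 4.

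In the list of parvalbumin-cell genes 5 of 10 tested were higher and none lower, with a median log2 ratio of 1.03 against 0.02 over all genes tested. Besides Syt2 these were Btbd11, which encodes a BTB-domain protein, at 3.28-fold (2.79 to 3.87), Mef2c at 2.70-fold (2.42 to 3.03), the nuclear receptor gene Esrrg and Tac1. Mef2c had 883 CPM in Nxph1/Erbb4 nuclei and 327 CPM in Sst nuclei. Tac1 had 22.9 CPM in Nxph1/Erbb4 nuclei and 7.59 CPM in Sst nuclei, a difference that fell to 1.77-fold among the nuclei with a Lhx6 UMI and 1.39-fold after thinning. Esrrg stood at 2.08-fold and fell under 2-fold without set 3 (1.94) or set 4 (1.95). Of the fast-spiking channels 2 of 14 were higher and none lower, with a median log2 ratio of 0.55. The higher ones were Kcnc1 (Kv3.1) and the channel subunit gene Kcnab3. Kcnc1 had 272 CPM in Nxph1/Erbb4 nuclei and 136 CPM in Sst nuclei, a ratio of 2.01 that fell under 2 without any one of sets 3 to 6 (1.81 to 1.98). Kcnab3, with 21.8 CPM in Nxph1/Erbb4 nuclei and 6.65 CPM in Sst nuclei, was at 3.28-fold, but at 2.14-fold without set 4, 5.08-fold without set 3 and 1.23-fold after thinning. After thinning, Esrrg (1.78-fold) and Kcnc1 (1.80-fold) were under 2-fold as well. Kcnc2 had 2674 CPM in Nxph1/Erbb4 nuclei and 2676 CPM in Sst nuclei, a ratio of 0.999 (0.959 to 1.04).

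Among receptors, 4 of 14 GABA receptor genes were higher and none lower, with a median log2 ratio of 0.48. They were Gabrg3, Gabrd, Gabra4 and Gabra5. Gabrd, the delta subunit of extrasynaptic receptors, had 35.5 CPM in Nxph1/Erbb4 and 5.70 CPM in Sst nuclei, a ratio of 6.24 that rested on 6 Sst UMIs and was 24.4 without set 3. Gabra4, at 2.28-fold, was at 3.80-fold without set 3 and fell to 1.81-fold without set 4, and Gabra5 to 1.93-fold without set 2 and 1.54-fold without cluster 1. Of the metabotropic glutamate receptors 3 of 5 were lower, with a median log2 ratio of -1.20. Of these, Grm7 and Grm8 were 2.29 and 2.63 times lower and lost the call without set 4, at 1.98 and 1.85. Chrm3, the M3 muscarinic receptor, had 392 CPM in Nxph1/Erbb4 and 1101 CPM in Sst nuclei, and Neto1, an auxiliary subunit of kainate receptors, was 3.13 times lower (2.91 to 3.36).

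All 5 somatostatin markers beside Sst were lower in Nxph1/Erbb4 nuclei. Elfn1 had 43.2 CPM in Nxph1/Erbb4 and 171 CPM in Sst nuclei, 3.95 times lower (3.22 to 4.86), and 128 of its 202 UMIs in Nxph1/Erbb4 nuclei lay in cluster 4. Reln, the secreted protein reelin, was 3.36 times lower and 5.17 times lower without set 3. Npy, neuropeptide Y, was 5.23 times lower, but 2.68 times without set 1, and Grin3a 2.76 times (2.48 to 3.06). Of the transcription factors of the CGE list 2 of 8 were higher and 3 lower, with a median log2 ratio of 0.15. Npas1 had 10.9 CPM in Nxph1/Erbb4 and 70.2 CPM in Sst nuclei, Npas3 was 2.79 times lower, and Nr2f2 was 2.19 times lower but 1.70 times without set 1. Nfib was 5.68 times higher, and 12.8 times without set 3. Nfix was 2.21 times higher, and 5.30 times without set 3, but under 2-fold without set 1 (1.87), set 2 (1.95) or set 4 (1.89). Without cluster 1 Nfib stood at 2.47-fold and Nfix at 1.22-fold, and against the Sst nuclei with at least 2 Erbb4 UMIs Nr2f2 was 1.57 times lower. No transcription factor of the MGE list was called either way among 5 tested, with a median log2 ratio of -0.22. Outside the lists the lowest ratio belonged to Synpr, a synaptic vesicle protein, with 251 CPM in Nxph1/Erbb4 nuclei and 1359 CPM in Sst nuclei, and Trpc6, a cation channel, was 4.03 times lower. Cluster 4 held 584 of the 1171 Synpr UMIs and 285 of the 632 Trpc6 UMIs of the Nxph1/Erbb4 nuclei. Synpr had 1203 CPM in cluster 4 and 140 CPM in the other Nxph1/Erbb4 nuclei.

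Of the neurexophilin and neuregulin list 2 of 6 genes were higher and none lower, with a median log2 ratio of 0.70. Of the adhesion list 3 of 31 were higher and 2 lower (Elfn1 and Cdh9), with a median of 0.13. Nxph2, a relative of Nxph1, had 43.9 CPM in Nxph1/Erbb4 and 6.65 CPM in Sst nuclei, 6.60 times as much (3.15 to 16.6, from 7 Sst UMIs). Cntnap4, a neurexin-family protein of interneuron synapses (chr8:112570043-112882717), was 2.62 times higher (2.37 to 2.89), and its lowest Nxph1/Erbb4 set, with a range over sets of 811 to 1324 CPM, was above the 544 and 316 CPM of Sst nuclei. Outside the lists, Tll1 had 179 CPM in Nxph1/Erbb4 and 23.7 CPM in Sst nuclei.

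Part of the contrast with Sst nuclei followed cluster 1. Of the neurogliaform and ivy markers 4 of 5 were higher and Reln was lower. Lamp5 had 53.3 CPM in Nxph1/Erbb4 nuclei, while Sst nuclei held 1 Lamp5 UMI in all, a ratio of 56.1 with an interval of 9.98 to 2225. Without set 3 no Lamp5 UMI was left in Sst nuclei, and 14.0 is then a lower bound, taken against 3 UMIs there. Without cluster 1 the ratio was 6.21. Without the 146 nuclei of cluster 1 the ratio of Hapln1 went to 1.55, against 9.75 with them, and that of Cacna2d1 to 1.38, against 7.08. Both then lost the call, and without set 3 the Cacna2d1 ratio was 16.7. Without cluster 1 Gabrg3, Syt2, Btbd11 and Mef2c kept their calls. The Sst side is small, and its deepest nucleus, in set 3, held 85729 UMIs (8.14% of all Sst UMIs) and 51 of the 116 Cacna2d1 UMIs. Without it 261 genes were higher, and against the 84 Sst nuclei that also held at least 2 Erbb4 UMIs 217 were higher and 109 lower.

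**Figure D3:**
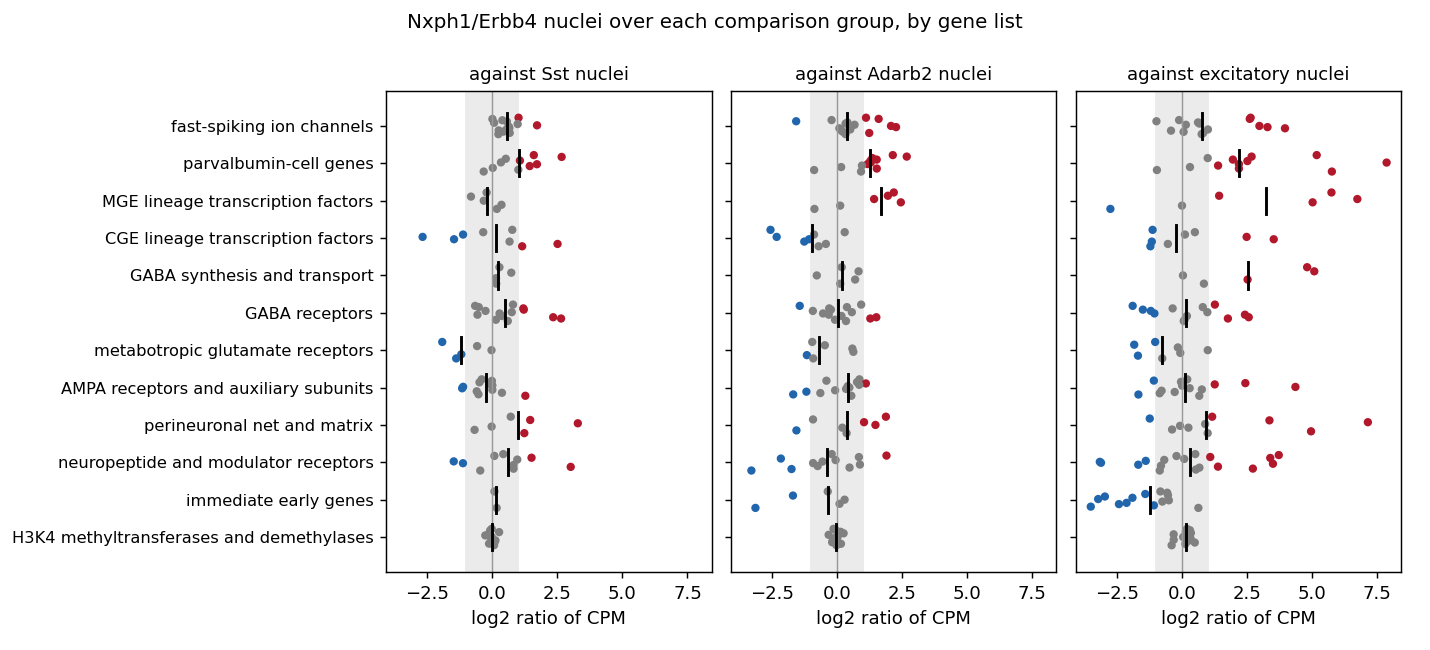
Log2 ratio of Nxph1/Erbb4 nuclei over Sst, Adarb2 and excitatory nuclei for each tested gene of 12 lists (1 point per gene; red at least 2-fold higher, blue at least 2-fold lower, grey band within 2-fold, black bar the list's median). The median bar of the parvalbumin-cell genes lies at 1.03, 1.27 and 2.18 in the 3 panels, that of the metabotropic glutamate receptors at -1.20 against Sst nuclei, and every H3K4 enzyme lies inside the band in each panel.

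Against Adarb2 nuclei, the Nxph1/Erbb4 nuclei had more RNA of MGE transcription factors, parvalbumin-cell genes and several potassium channels, and less of CGE transcription factors and of the cannabinoid receptor Cnr1. Of 9100 genes tested, 220 were higher (2.42%) and 361 lower (3.97%), and the median log2 ratio of all was -0.02. Adarb2 and the Nxph1 and Lhx6 pair set this contrast and are not counted. Of the MGE list 4 of 6 were higher and none lower, with a median log2 ratio of 1.68. Satb1 had 165 CPM in Nxph1/Erbb4 and 43.0 CPM in Adarb2 nuclei, and Maf was 2.66 times higher (2.44 to 2.91). Sox6, which MGE interneurons need for their maturation, was 4.50 times higher (4.07 to 4.99), and 11.2 times without set 1.

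Of the CGE list 4 of 8 were lower and none higher, with a median log2 ratio of -0.99. Prox1, a homeobox factor of CGE interneurons, had 27.4 CPM in Nxph1/Erbb4 nuclei and 163 CPM in Adarb2 nuclei, 5.95 times lower (4.94 to 7.22). Over sets 1 to 6 it ran over 22.1, 26.2 and 33.8 CPM (lowest, median, highest) in Nxph1/Erbb4 and 69.0, 152 and 205 CPM in Adarb2 nuclei, without overlap. Npas1 was 5.05 times lower. Cnr1 (chr4:33924593-33948831), the CB1 receptor of Cck basket cells, had 23.3 CPM in Nxph1/Erbb4 nuclei and 231 CPM in Adarb2 nuclei, 9.91 times lower (8.14 to 12.2). Its sets gave 18.2, 19.9 and 44.6 CPM in Nxph1/Erbb4 and 150.0, 217 and 404 CPM in Adarb2 nuclei, again without overlap.

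Parvalbumin-cell genes were higher in 8 of 12 cases and lower in none, with a median log2 ratio of 1.27. Syt2 was 6.36 times higher (4.84 to 8.46), and 9.82 times without set 1, with a range over sets of 37.8 to 107 CPM in Nxph1/Erbb4 and 0 to 19.9 CPM in Adarb2 nuclei. Mef2c (chr13:83504034-83667080) had 510.5, 920.4 and 999 CPM (lowest, median, highest) over the sets of Nxph1/Erbb4 nuclei and 335, 396 and 452 CPM over those of Adarb2 nuclei, 2.24 times higher in sum. Ppargc1a, a coactivator of mitochondrial genes, was 2.54 times higher (2.27 to 2.85) and Esrrg 2.85 times (2.68 to 3.05). Both ranges over sets lay above those of Adarb2 nuclei, with Ppargc1a at 159.9 to 293 CPM in Nxph1/Erbb4 and 71.4 to 93.3 CPM in Adarb2 nuclei and Esrrg at 446 to 882 CPM in Nxph1/Erbb4 and 187 to 315 CPM in Adarb2 nuclei.

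Of the fast-spiking channels 5 of 15 were higher and 1 lower, with a median log2 ratio of 0.39. Kcnc2 had 2674 CPM in Nxph1/Erbb4 nuclei and 889.7 CPM in Adarb2 nuclei, a ratio with an interval of 2.91 to 3.11. Kcns3, a modulatory subunit that is enriched in parvalbumin neurons of the cortex (chr12:11090202-11151056), had 104, 119 and 165 CPM over the sets of Nxph1/Erbb4 nuclei and 8.34, 31.3 and 50.0 CPM over those of Adarb2 nuclei, 4.78 times higher in sum (3.95 to 5.82). The Kcns3 level was not led by the clusters rich in Pvalb: it was 229.9 CPM in cluster 1, 97.1 in cluster 2 and 90.6 in cluster 3. Kcnc4, another Kv3 channel, was lower, at 6.42 CPM in Nxph1/Erbb4 and 19.3 CPM in Adarb2 nuclei.

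Receptor and adhesion genes were called in both directions. Of 14 GABA receptor genes 2 were higher and 1 lower, and of 12 neuropeptide and modulator receptors 1 and 3. The AMPA receptor list had 1 higher and 2 lower (Shisa9 and Cnih3) of 13. The calcium channel list had 2 higher and 2 lower (Cacna1e and Cacna1h) of 13. Of 32 adhesion genes 4 were higher and 2 lower (Slit3 and Sema3e), and of 6 neurexophilin and neuregulin genes 1 was higher. Gabrg3 was 2.83 times higher (2.75 to 2.91), with 2613, 3576 and 4055 CPM over the sets of Nxph1/Erbb4 nuclei and 1045, 1317 and 1842 CPM over those of Adarb2 nuclei. Gabra2, the alpha-2 subunit, had 175 CPM in Nxph1/Erbb4 and 478 CPM in Adarb2 nuclei. Oprd1 was 3.70 times higher (3.01 to 4.59), and Npy1r, a receptor of neuropeptide Y, 4.51 times lower (3.10 to 6.76). Gria4, the AMPA receptor subunit GluA4 of fast interneurons, was 2.14 times higher and fell to 1.99 without set 4, and Cacna2d2, a calcium channel subunit, was 2.87 times higher and 7.30 times without set 1. Nxph2 had 43.9 CPM in Nxph1/Erbb4 nuclei and 1.98 CPM in Adarb2 nuclei, 22.1 times higher (12.1 to 45.1), and Cntnap4 was 4.40 times higher (4.15 to 4.67). Outside the lists, Tmem44 had 144 CPM in Nxph1/Erbb4 and 11.3 CPM in Adarb2 nuclei, and the transcription factor gene Sox5 was 5.13 times higher (4.71 to 5.59). Ntng1, which encodes netrin-G1, had 86.2 CPM in Nxph1/Erbb4 and 891 CPM in Adarb2 nuclei.

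The Adarb2 side held more RNA of other classes. Slc17a7 had a UMI in 8.75% of Nxph1/Erbb4, 9.71% of Sst and 31.5% of Adarb2 nuclei. Without nuclei carrying markers of other classes on either side, 173 genes were higher and 217 lower, and Kcnc1 (1.77-fold, against 2.15), Btbd11 (1.73, against 2.43), Gria4 (1.65) and Kcnc4 (1.99 times lower) lost their calls. Kcnc1 was also under 2-fold without set 4 (1.97). After thinning, Btbd11 (1.90) and Gria4 (1.95) were also under 2-fold.

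**Figure D4:**
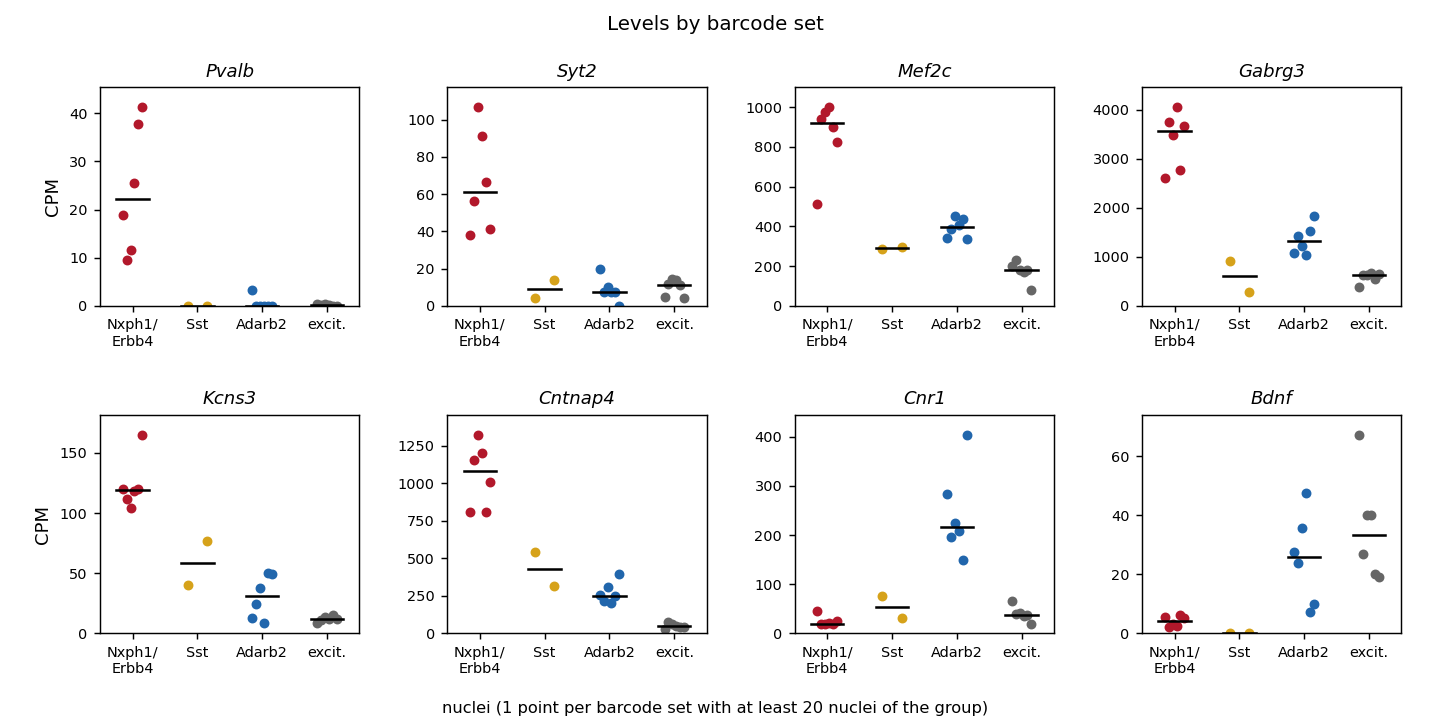
Levels in CPM of 8 genes by barcode set for Nxph1/Erbb4, Sst, Adarb2 and excitatory nuclei (1 point per barcode set with at least 20 nuclei of the kind; bar, median over sets). For Syt2, Mef2c, Gabrg3 and Cntnap4 every Nxph1/Erbb4 point lies above every point of the other kinds, with Syt2 at 37.8 to 107 CPM, while Cnr1 is highest in Adarb2 nuclei and Bdnf in Adarb2 and excitatory nuclei.

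Against excitatory nuclei, the Nxph1/Erbb4 nuclei carried far more RNA of the vesicular GABA transporter Slc32a1, of several MGE transcription factors and of the glutamate receptor subunits Grik1 and Gria4. They carried less RNA of several activity-regulated and CaM kinase genes. Of 11948 genes tested, 923 were higher (7.73%) and 937 lower (7.84%), with a median log2 ratio of 0.11. Slc17a7, on which the excitatory nuclei were chosen, is counted among the lower genes. Of the 5 genes of GABA synthesis and transport tested beside Gad1 and Gad2, 3 were higher. Slc32a1, which loads GABA into vesicles, had 33.2 CPM in Nxph1/Erbb4 and 1.19 CPM in excitatory nuclei, 27.9 times as much (19.8 to 40.1). Of the MGE transcription factors 4 of 6 were higher and 1 lower (Etv1), with a median log2 ratio of 3.21. Of the CGE list 2 of 8 were higher and 3 lower (Prox1, Nfia and Nfix), with a median of -0.23. In the MGE list Maf was 106 times higher (88.1 to 129.6) and Sox6 53.4 times (46.8 to 61.0). These ratios compare kinds chosen on Gad1 and Gad2 and describe them.

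Parvalbumin-cell genes were higher in 9 of 12 cases, with a median log2 ratio of 2.18, and fast-spiking channels in 5 of 15, with a median of 0.74. Btbd11 had 494 CPM in Nxph1/Erbb4 and 2.13 CPM in excitatory nuclei, and the phosphatase gene Ptprm was 53.9 times higher. Kcnc1 was 6.18 times higher (5.74 to 6.66), Kcnc2 6.04 times (5.90 to 6.19), and Kcnip1, a calcium-binding subunit of A-type potassium channels, 15.4 times (14.3 to 16.7). Kcnc2 ran over 1276, 2532 and 3209 CPM over the sets of Nxph1/Erbb4 nuclei and 332, 442 and 531 CPM over those of excitatory nuclei, so the kinds did not overlap. Outside the lists Kcnmb2, a subunit of BK potassium channels, had 1189 CPM in Nxph1/Erbb4 and 14.3 CPM in excitatory nuclei.

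Glutamate receptor lists were split. Of 14 AMPA receptor and auxiliary genes 3 were higher and 2 lower: Gria4 was 5.37 times higher (5.24 to 5.50), while Gria2, whose GluA2 subunit blocks calcium entry, had 1627 CPM in Nxph1/Erbb4 nuclei and 3477 CPM in excitatory nuclei and fell to 1.91-fold lower without cluster 1. Grik1, the kainate receptor subunit GluK1, was 38.4 times higher (36.2 to 40.7). Of the NMDA receptor subunits Grin2d was 4.29 times higher (3.63 to 5.05) and Grin2a 2.31 times lower, or 4.90 times lower without cluster 1. Among GABA-A subunits Gabra2 had 175 CPM in Nxph1/Erbb4 and 659 CPM in excitatory nuclei, and Gabrg3 was 5.88 times higher (5.76 to 6.00). The M2 muscarinic receptor gene Chrm2 was 11.2 times higher and the M3 gene Chrm3 3.24 times lower, so the muscarinic pair differed in direction.

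Of 14 immediate early genes, which neurons switch on after activity, 8 were lower and none higher, with a median log2 ratio of -1.26. Bdnf, the neurotrophin that excitatory cells supply to interneurons, had 3.42 CPM in Nxph1/Erbb4 nuclei and 39.3 CPM in excitatory nuclei, 11.5 times lower (7.05 to 20.2). Its sets gave 2.18, 4.25 and 6.31 CPM in Nxph1/Erbb4 and 19.0, 33.5 and 67.3 CPM in excitatory nuclei, without overlap, and without cluster 5 it was 19.7 times lower. Arc, a plasticity gene, was 9.44 times lower (4.55 to 23.6), from 7 UMIs in Nxph1/Erbb4 nuclei. Of the CaM kinase and Creb list 5 of 12 were lower and 2 higher. Camk2a had 340.0 CPM in Nxph1/Erbb4 and 1032 CPM in excitatory nuclei. Ntrk2, the BDNF receptor TrkB, was 2.19 times higher and 1.98 times without cluster 1.

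No enzyme that adds or removes methyl groups at lysine 4 of histone H3 was called in any comparison of kinds. None of 11 tested was called against Sst nuclei, none of 12 against Adarb2 nuclei and none of 13 against excitatory nuclei, with median log2 ratios of -0.03, -0.04 and 0.13. Over all genes tested, 3.03% were higher and 1.54% lower against Sst nuclei, and 2.42% and 3.97% against Adarb2 nuclei. Against excitatory nuclei the shares were 7.73% and 7.84%. At such shares a list of this size would hold few calls or none, so their absence does not set these enzymes apart. Setd1b, a methyltransferase, had 7.30, 21.8 and 33.8 CPM (lowest, median, highest) over the sets of Nxph1/Erbb4 nuclei, 15.8, 20.4 and 35.7 CPM in Adarb2 and 13.5, 15.1 and 29.0 CPM in excitatory nuclei. The ranges overlapped in all 3 kinds.

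Splitting the 514 nuclei by Pvalb gave 58 with a UMI, at a median of 10840 UMIs, and 456 without, at a median of 7734.5. Of 6351 genes tested, 65 were higher with Pvalb (1.02%) and 317 lower (4.99%). The nuclei with a Pvalb UMI had more Syt2, Plcxd3 and Kcnab3 RNA and far less of neurogliaform and ivy genes. Syt2 had 146 CPM with Pvalb and 59.7 CPM without, 2.45 times as much (1.92 to 3.12), and a UMI in 33 of 58 nuclei (56.9%) with Pvalb and 82 of 456 (18.0%) without. Of the parvalbumin-cell genes 3 of 10 were higher and none lower, with Plcxd3 at 686 CPM with Pvalb and 323 CPM without and Btbd11 2.01 times higher (1.83 to 2.21). Of the channels 2 of 14 were higher, Kcnab3 with 43.3 CPM with Pvalb and 18.2 CPM without, and Kcna2 (2.19 times). Kcnc2 had 3607 CPM with Pvalb and 2518 CPM without. Gabrd was 2.29 times higher (1.60 to 3.25). Outside the lists Myo1e, an unconventional myosin that also led cluster 2, was 3.30 times higher (2.60 to 4.16).

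On the lower side stood the neurogliaform and ivy markers, 5 of 5, and the somatostatin markers, 3 of 4 (Elfn1, Reln and Grin3a). Their median log2 ratios were -2.71 and -1.40. Reln, which both lists hold and which was raised in clusters 1 and 4, had 10.5 CPM with Pvalb and 303 CPM without, 29.0 times lower (14.0 to 72.2), and a UMI in 4 of 58 nuclei (6.90%) with Pvalb and 162 of 456 (35.5%) without. The Reln ratio was 64.6 without set 2 and 18.1 without set 3. Lamp5 had 14.9 CPM with Pvalb and 59.7 CPM without, 3.99 times lower and 11.1 times without set 1. Cacna2d1 had 89.6 CPM with Pvalb and 895 CPM without, 9.99 times lower and 33.6 times without set 1. Nos1 was 6.54 times lower (3.28 to 15.3). Npy had no UMI in the 58 nuclei with Pvalb (upper bound 6.16%), and 1 or more in 38 of the 456 without (8.33%). Cck, the cholecystokinin gene of other basket cells, had a UMI in 9 of 58 (15.5%) with Pvalb and 72 of 456 (15.8%) without.

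These differences depend on which nuclei stand on the side without Pvalb. Without cluster 1, Syt2 (1.88-fold), Plcxd3 (1.61), Btbd11 (1.67), Kcnab3 (1.83), Kcna2 (1.93) and, on the lower side, Lamp5 (1.34 times lower) were under 2-fold, 24 genes were higher and 237 lower. Without set 1 Syt2 was at 1.95-fold and Btbd11 at 1.87-fold, and without set 3 Plcxd3 was at 1.88-fold and Kcna2 at 1.98-fold. Btbd11 was also under 2-fold without set 5 (1.96) or set 6 (1.96), and Kcna2 without set 5 (1.94). A nucleus without a Pvalb UMI may still express the gene, and the deeper nuclei are more likely to show a UMI.

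**Figure D5:**
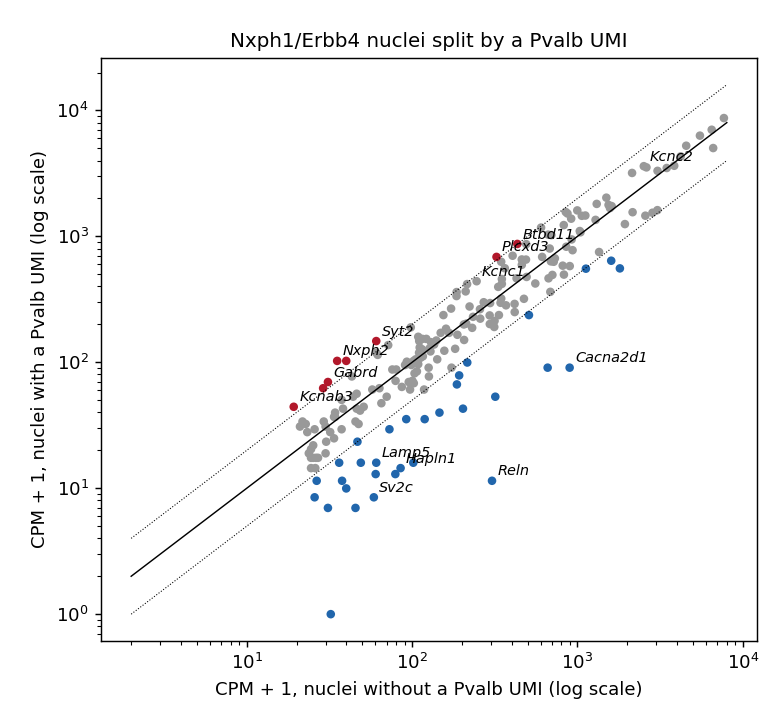
CPM + 1 of list genes in Nxph1/Erbb4 nuclei with a Pvalb UMI (y axis, log scale) against those without (x axis, log scale), 1 point per gene; solid line, equal levels; dotted lines, 2-fold; red, at least 2-fold higher with Pvalb; blue, at least 2-fold lower. Syt2, at 146 CPM with Pvalb and 59.7 without, lies above the band, Reln and Cacna2d1 lie far below it, and the point on the lower edge is Gabrg1, with no UMI in nuclei with Pvalb.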

How the data were processed

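Frozen hippocampal nuclei were stained with 7AAD, sorted and run on the 10x Chromium 3′ platform, per the labels' protocols. Cell Ranger 4.0.0 and mm10 (GRCm38) are named in the submitters' processing notes (annotation release and intron counting: not given in the sources used here). Deposited by the authors was 1 matrix of UMI counts, 24837 genes by 15661 barcodes, without cell type labels, and 24797 gene IDs matched GENCODE M21, from which coordinates were taken.

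UMIs were summed over the nuclei of a kind and divided by their total (CPM). Ratios have exact conditional intervals and shares exact binomial (Clopper-Pearson) intervals, at 95% and for counting error only. A gene needed at least 100 UMIs over both sides and a ratio of at least 2-fold. Genes of the selection rules were not counted, apart from Slc17a7, which chose the excitatory nuclei and stayed in the counts. With 1 pooled matrix there is no replicate and no test. Nuclei were thinned to 2000 UMIs for shares, and the thinned counts were also summed for the ratios and counts of calls given after thinning. Doublets were called per barcode set with Scrublet in scanpy 1.11.5 (expected rate 0.05). Clusters used log-normalized values, 1500 of 12013 genes, 15 principal components, 15 neighbours and Leiden resolution 0.6 (7 clusters, of which 1 was split along the boundary seen at resolution 0.3, giving 8; 12 at resolution 1), all chosen after seeing the data. Genes could be named from 33 lists (341 of 342 genes found) and from the 10 highest and 10 lowest ratios outside them, with at least 10 UMIs on the higher side and the same direction in every set with at least 20 nuclei on both sides; for the Pvalb split the 100-UMI minimum alone applied. The steps that sum counts and make calls were tested on simulated counts. The nuclei and gene lists were chosen with earlier results of these data known.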

Additional observations from a re-analysis of the deposited data

How the results depend on the processing

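No paired analysis was possible because the 1 pooled matrix holds 1 group and no replicate numbers. Counts of called genes moved with several choices. Changing the UMI minimum, thinning or leaving out nuclei also changes how many genes reach the minimum and are tested. Such counts, here and beside the comparisons above, are therefore not shares and cannot be set directly against the main counts. With at least 20 UMIs 747 genes were higher and 346 lower than in Sst nuclei, 449 and 701 than in Adarb2 nuclei, 1523 were higher than in excitatory nuclei, and 245 were higher and 1111 lower with a Pvalb UMI; with at least 300 UMIs these were 114 and 63, 128 and 185, 550, and 25 and 116. Thinning to 2000 UMIs gave 120 higher and 53 lower against Sst, 103 and 145 against Adarb2 and 466 higher against excitatory nuclei, and a Pvalb share of 4.07%. With the 58 nuclei with a Pvalb UMI alone, 137 were higher and 177 lower against Sst, 930 lower against Adarb2 and 1681 lower against excitatory nuclei, and the log2 ratios over Sst nuclei of Cacna2d1 (-0.30), Gabra5 (-0.00463) and Nfix (-0.99) turned negative. The 208 nuclei with a Lhx6 UMI had 593 genes lower against Adarb2 nuclei. The median over barcode sets gave 460 higher and 212 lower against Sst nuclei, and UMIs per nucleus without scaling gave 168 lower against Sst and 576 higher and 1537 lower against excitatory nuclei. Chosen after seeing the data, 24 genes were higher with a Pvalb UMI without cluster 1, and 217 were lower than in Adarb2 nuclei without nuclei carrying markers of other classes. Leaving out each barcode set in turn gave 180 to 310 higher and 83 to 114 lower against Sst, 158 to 258 and 290 to 393 against Adarb2, 828 to 931 and 861 to 963 against excitatory nuclei, 46 to 66 and 251 to 335 for the Pvalb split, and a Pvalb share of 9.38% to 13.1%; the cause of these shifts was not tested. The small Sst side limits that comparison.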
